A study of Mus musculus with 4 samples.

Results

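The 32 genes described here govern how a cell makes, senses, stores and exports cholesterol, and all 32 were found among the 32285 genes of the deposited count matrices. They were taken from a list of 18 enzymes of sterol synthesis, 5 genes of the sterol sensor, the exporters Abca1 and Abcg1, the nuclear receptor genes Nr1h2 and Nr1h3 with their target Mylip, and 4 genes of sterol storage and transport. The genes were read in tumour cells of B6 mice (wild type, Thy1.2+) that bore chimeric tumours and had received a transfer of Tc9 or Tc1 cells, which are Thy1.1+ CD8 T cells from Pmel-1 mice, in both groups together with an adjuvant. Pmel-1 T cells carry a transgenic receptor for a melanocyte antigen, Tc9 cells are named for interleukin 9 and Tc1 cells for interferon gamma. The tumours of 3 mice per group were pooled on day 30 and CD4 T cells were sorted, so each group is 1 RNA library with 1 matching T cell receptor library. The parts that made up the chimeric tumours are not named in the sources used here.

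Cells meet a need for sterol by synthesis through the mevalonate pathway or by uptake of lipoproteins. When sterol in the endoplasmic reticulum is low, SCAP carries the SREBP transcription factors away from their INSIG anchors, and SREBP2 switches on the synthesis enzymes. When sterol is plentiful, oxysterols activate the LXR receptors, which switch on ABCA1 and ABCG1 for export and MYLIP, a ubiquitin ligase that removes lipoprotein receptors from the surface. Dividing T cells are known to raise synthesis and to hold LXR activity down, and lipid-loaded macrophages are a textbook case of the opposite state.

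The promoters of 4 members, 3 synthesis genes and an exporter, are shown to set side by side which motifs of these regulators each window holds. Each covers 250 bases before to 50 bases after the start of the gene, from RefSeq on GRCm38.p6, which is the build of the files. Capitals mark a sterol response element (TCACNCCAC), the CCAAT box bound by NF-Y, a partner of SREBP2, or an LXR element (AGGTNA and NGGTCA with 4 bases in between), each searched on both strands, so that ATTGG is a CCAAT box on the other strand. Hmgcs1 lies at chr13:119690101-119690400 (+ strand), Idi1 at chr13:8885356-8885655 (+ strand), Msmo1 at chr8:64733529-64733828 (- strand) and Abca1 at chr4:53159846-53160145 (- strand).
Hmgcs1: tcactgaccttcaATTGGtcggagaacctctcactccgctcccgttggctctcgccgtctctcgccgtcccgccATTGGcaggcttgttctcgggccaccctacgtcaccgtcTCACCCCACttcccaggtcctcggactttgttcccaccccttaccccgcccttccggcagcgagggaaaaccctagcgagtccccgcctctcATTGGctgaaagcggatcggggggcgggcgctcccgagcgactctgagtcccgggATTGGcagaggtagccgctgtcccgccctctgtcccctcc
Idi1: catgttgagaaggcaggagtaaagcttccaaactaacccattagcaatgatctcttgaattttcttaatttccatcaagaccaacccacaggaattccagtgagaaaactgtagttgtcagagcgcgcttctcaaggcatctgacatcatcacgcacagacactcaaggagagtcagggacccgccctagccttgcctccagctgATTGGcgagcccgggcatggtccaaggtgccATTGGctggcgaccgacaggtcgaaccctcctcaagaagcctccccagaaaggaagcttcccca
Msmo1: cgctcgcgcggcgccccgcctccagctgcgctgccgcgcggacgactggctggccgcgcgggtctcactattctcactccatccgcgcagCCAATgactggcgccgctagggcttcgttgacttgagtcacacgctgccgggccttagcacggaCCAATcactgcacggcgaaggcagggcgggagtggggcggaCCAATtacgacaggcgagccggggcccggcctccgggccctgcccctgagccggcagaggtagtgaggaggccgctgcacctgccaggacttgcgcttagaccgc
Abca1: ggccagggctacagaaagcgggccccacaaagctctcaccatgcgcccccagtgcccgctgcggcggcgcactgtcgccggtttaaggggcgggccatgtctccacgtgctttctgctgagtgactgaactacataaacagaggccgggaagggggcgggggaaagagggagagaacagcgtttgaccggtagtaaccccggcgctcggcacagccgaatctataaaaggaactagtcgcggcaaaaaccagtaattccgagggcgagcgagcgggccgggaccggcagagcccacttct

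Of the 32 members 26 had a promoter in the RefSeq table, among them 15 of the 18 synthesis genes. A CCAAT box stood in the first listed promoter of 13 of these 15 (86.7%), against 37.9% of 27025 promoters of the same length. Hmgcs1 has 4 such boxes and Msmo1 has 3, while Abca1 has 0. The sterol response element was found in Hmgcs1, at -137 from the start, and in none of the other 14 synthesis promoters. That is 6.67% of the synthesis promoters, against 1.22% of all promoters. None of the 26 members' windows, Abcg1 not among them, held this exact LXR pattern, which occurs in 0.0851% of all promoters. The Abca1 window does hold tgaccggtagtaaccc, which on the other strand differs from the LXR pattern only in its first letter. It is left in small letters, since near matches to any of the motifs were not counted. A match or its absence describes the letters in the window and says nothing of binding.

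The Tc9 library had 8449 barcodes with 50713493 UMIs (unique molecular identifiers, counted molecules) and the Tc1 library 13406 barcodes with 106053410 UMIs, and 148 barcode sequences occurred in both. Filters of 500 or more genes and a mitochondrial share of 10% or less left 8204 barcodes in Tc9 and 11933 in Tc1. Cells were then placed in gates by UMIs of defining genes. The Tc9 and Tc1 libraries gave 988 and 180 Foxp3 cells (regulatory T cells), 3586 and 1101 other CD4 T cells, 190 and 1577 CD8 T cells, and 162 and 612 cycling T cells. Macrophages without Mmp12 numbered 29 and 1564, macrophages with Mmp12 numbered 1 and 319, dendritic cells 30 and 119, and melanoma cells 0 and 224. The CD8, myeloid and melanoma cells fall outside the CD4 sort. Of the kept barcodes 60.8% in Tc9 and 47.7% in Tc1 entered a gate. With under 50 Tc9 cells, the myeloid gates are given for Tc1, with Tc9 values at the end.

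Marker genes that the gates did not use were read as a check of the names. Il2ra, Ctla4, Ikzf2 and Tnfrsf18 together reached 3756 CPM (UMI counts scaled to the gate's total UMIs) in Tc9 and 3072 CPM in Tc1 Foxp3 cells, against 423 and 456 CPM in other CD4 cells and 955 and 296 CPM in CD8 cells, in Tc9 and Tc1. The 5 held-out cycle genes summed to 593 CPM in Tc9 and 679 CPM in Tc1 cycling cells, against 13.1 and 13.5 CPM in other CD4 cells. The cytotoxic genes Gzmb, Gzma, Prf1 and Nkg7 summed to 1186 CPM in Tc9 and 3307 CPM in Tc1 CD8 cells, 575 and 1445 CPM in Foxp3 cells and 345 and 552 CPM in other CD4 cells, so the Tc1 Foxp3 sum lay above that of Tc9 CD8 cells. The held-out CD4 helper genes summed to 1863 CPM in Tc9 and 1507 CPM in Tc1 Foxp3 cells, against 1631 and 918 CPM in other CD4 cells, and so did not set the other CD4 gate apart. The Tc1 T cell gates also carried RNA of other cells. The 8 macrophage check genes, all detected, summed to 1017 to 2327 CPM in the 4 Tc1 gates, against 43.3 to 155 CPM in Tc9, where Pf4 and Cd14 were at 0 in CD8 cells. In Tc1 macrophages without Mmp12 they summed to 18683 CPM. Haemoglobin genes reached 3264 CPM in Tc1 other CD4 cells and 0.188 CPM in Tc9 other CD4 cells. Melanoma check genes summed to 39.2 to 71.4 CPM in the Tc1 T cell gates and 1.17 to 5.18 CPM in the Tc9 T cell gates. In the 4 T cell gates, markers of NK cells stood at 4.07 to 29.2 CPM in Tc9 and 7.38 to 91.1 CPM in Tc1. The sums of B cell markers there stayed at or under 1.48 and 5.12 CPM, and those of neutrophils at or under 1.96 and 37.6 CPM, in Tc9 and Tc1. In the same gates fibroblast markers summed to 1.11 to 75.9 CPM in Tc9 and 4.61 to 66.4 CPM in Tc1. Endothelial markers summed there to 79.4 to 127 CPM in Tc9 and 42.7 to 84.6 CPM in Tc1, nearly all of it Pecam1 in the CD4 gates. The Tc1 dendritic gate held 2095 CPM of its own check genes, 4217 CPM of macrophage check genes and 415 CPM of fibroblast markers. Tc1 melanoma cells held 5348 CPM of melanoma and 1521 CPM of macrophage check genes, of which Apoe made 1413 CPM. Neutrophil markers reached 161 CPM in Tc9 and 54.7 CPM in Tc1 macrophages without Mmp12. The heat shock genes Hspa1a, Hspa1b, Hspb1 and Dnajb1, which cells switch on under stress, summed to 116 CPM in Tc9 and 548 CPM in Tc1 Foxp3 cells, 285 and 1000.5 CPM in other CD4 cells, 194 and 430.0 CPM in CD8 cells and 286 and 355 CPM in cycling cells, with Tc9 first in each pair. The part of stress and of other cells' RNA in the ratios was not tested directly.

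**Figure D1:**
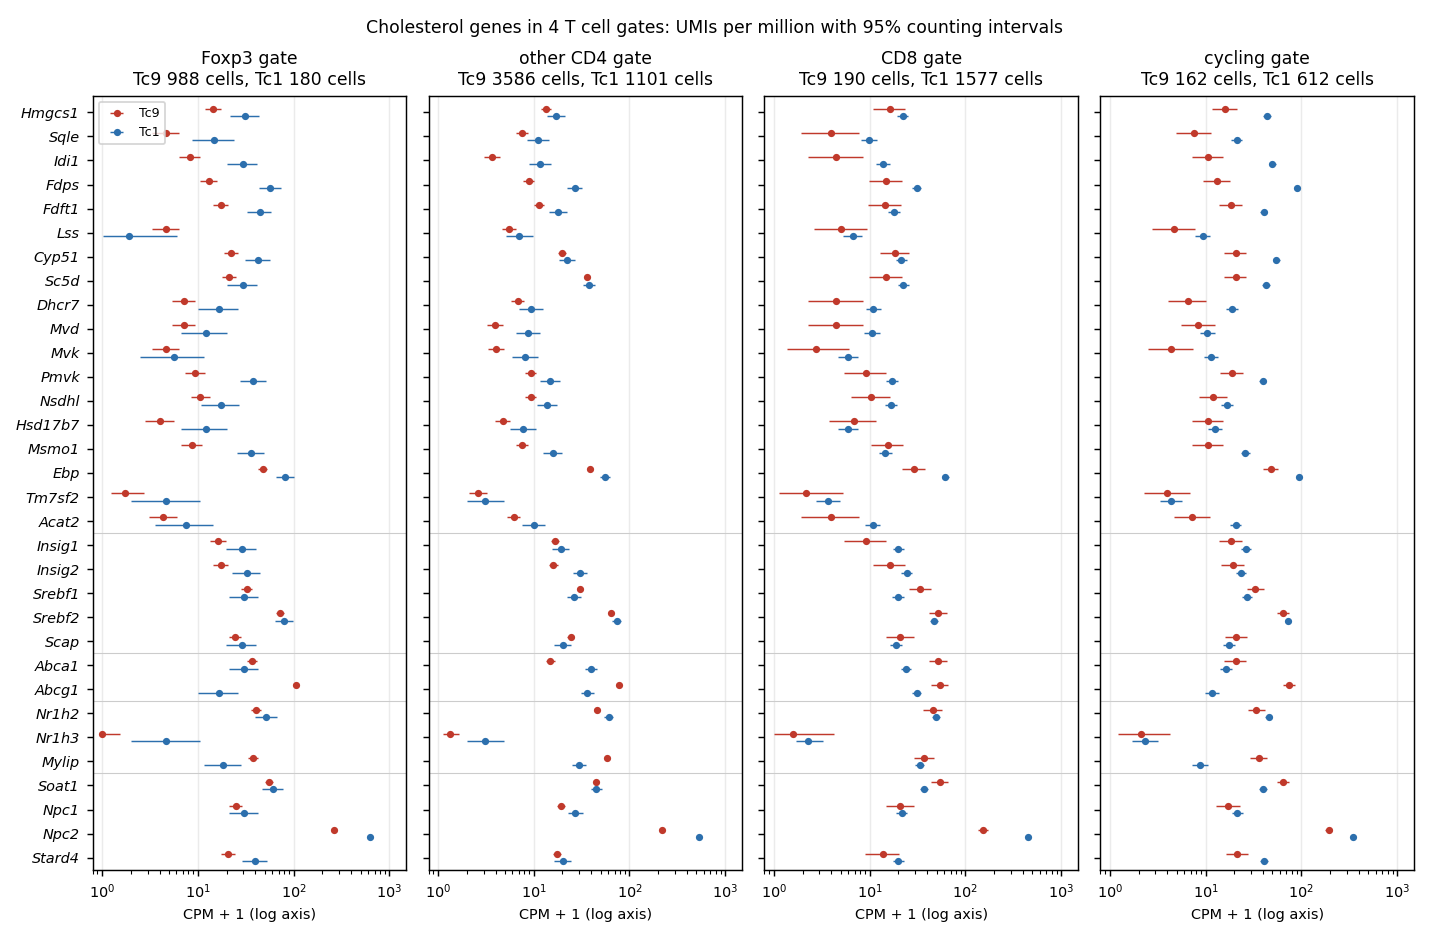
CPM + 1 of each of the 32 genes (rows, grouped by role with grey lines) on a log axis in 4 T cell gates, red for Tc9 and blue for Tc1, with bars for the 95% counting interval. In the cycling panel all 18 synthesis genes lie lower in Tc9, and Abcg1 and Mylip lie higher.

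The summed level of the 18 synthesis genes was lower in Tc9 than in Tc1 in each of the 4 T cell gates. In Foxp3 cells it was 194 CPM in Tc9 (exact Poisson 95% interval 183 to 205) and 466 CPM in Tc1 (426 to 509). Other CD4 cells had 182 CPM in Tc9 (176 to 188) and 282 CPM in Tc1 (267 to 297). CD8 cells had 164 CPM (145 to 184) in Tc9 and 286 CPM (276 to 297) in Tc1, and cycling cells 224 CPM (207 to 243) in Tc9 and 589 CPM (575 to 604) in Tc1. The log2 ratios of these sums, Tc9 over Tc1, were -1.26 in Foxp3, -0.63 in other CD4, -0.81 in CD8 and -1.39 in cycling cells. With free RNA subtracted by markers of macrophages and melanoma, an alternative added after seeing the data, the other CD4 ratio was -0.38. Some of these markers also served to keep barcodes out of the T cell gates, so this estimate of free RNA may be too low. The planned subtraction of free RNA, described at the end, shrank the other CD4 ratio further. The intervals of the sums as counted did not overlap between the libraries in any of these gates. All intervals cover counting error only, since each group is 1 library, and no test between the groups was possible.

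Gene by gene, members were counted as higher or lower from 1.5-fold on, among genes with a mean of at least 10 CPM over both libraries. Of the synthesis genes that reached this mean, 10 of 11 were lower in Tc9 Foxp3 cells, where 19.2% of all genes were lower to that extent. The counts were 5 of 9 in other CD4 cells (16.9% of all genes), 5 of 9 in CD8 cells (19.5%) and 12 of 14 in cycling cells (20.5%). None was 1.5-fold higher in any of the 4 gates, where 14.9%, 6.81%, 14.7% and 16.4% of all genes were, in the same order of gates. The median log2 ratio of these members was -1.34, -0.62, -0.62 and -1.42, against -0.02, -0.11, -0.06 and -0.03 over all genes. A member below the mean of 10 CPM can still be read by its direction. Over the whole list 17, 18, 16 and 18 of the 18 were lower in Tc9 by any amount, against 57.6%, 65.6%, 51.6% and 49.6% of all genes with a UMI in both libraries. The exceptions were Lss in Foxp3 cells, with 24 UMIs in Tc9 and 1 in Tc1, and Msmo1 and Hsd17b7 in CD8 cells.

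Fdps makes farnesyl diphosphate, the branch point to sterols and to prenyl groups. It had 12.1 CPM in Tc9 and 56.3 CPM in Tc1 Foxp3 cells, and 7.86 CPM in Tc9 and 25.9 CPM in Tc1 other CD4 cells. In CD8 cells it had 14.0 and 30.1 CPM, and in cycling cells 12.2 and 89.7 CPM, in Tc9 and Tc1. The log2 ratios were -2.22, -1.72, -1.10 and -2.88, and in the cycling gate this was the lowest of any member that reached 10 CPM. Thinned to 2000 UMIs a cell, 1.76% of Tc9 and 9.71% of Tc1 Foxp3 cells had a Fdps UMI. With free RNA subtracted by the alternative added after seeing the data, the other CD4 ratio of Fdps was -0.23. The part of other cells' RNA in this ratio was not tested directly.

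Idi1 isomerises the 5-carbon building blocks that Fdps joins. It stood at 7.24 CPM in Tc9 and 28.6 CPM in Tc1 Foxp3 cells, 2.68 and 10.7 CPM in other CD4 cells, 3.50 and 12.7 CPM in CD8 cells and 9.63 and 48.6 CPM in cycling cells, Tc9 first in each pair. Its log2 ratios lay between -2.34 and -1.86. Pmvk, which phosphorylates mevalonate 5-phosphate, had 8.44 CPM in Tc9 and 36.9 CPM in Tc1 Foxp3 cells, a log2 ratio of -2.13 (-2.74 to -1.51). Msmo1, a demethylase of the later sterol steps, had 7.69 CPM in Tc9 and 35.1 CPM in Tc1 Foxp3 cells, a log2 ratio of -2.19. In CD8 cells Msmo1 stood at 14.6 CPM in Tc9 and 13.6 CPM in Tc1, and its interval of -0.58 to 0.72 spans 0.

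Hmgcs1 and the squalene branch varied by gate. Hmgcs1, which makes HMG-CoA, had 13.6 CPM in Tc9 and 30.5 CPM in Tc1 Foxp3 cells and 14.8 and 42.8 CPM in cycling cells. In other CD4 cells it had 12.5 CPM in Tc9 and 16.2 CPM in Tc1, with an interval of the log2 ratio from -0.74 to 0.01. Fdft1, the squalene synthase, had log2 ratios of -1.40 in Foxp3, -0.70 in other CD4, -0.34 in CD8 and -1.18 in cycling cells. Sqle, which oxidises squalene, reached 10 CPM in the cycling gate alone, with 6.66 CPM in Tc9 and 20.2 CPM in Tc1. Cyp51, the lanosterol demethylase, had ratios of -0.96 in Foxp3 and -1.46 in cycling cells, but -0.18 and -0.22 in other CD4 and CD8 cells, where the intervals span 0.

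The later sterol enzymes were uneven. Ebp, a sterol isomerase, was lower in all 4 gates, with 46.7 CPM in Tc9 and 81.2 CPM in Tc1 Foxp3 cells and 28.0 and 60.8 CPM in CD8 cells. Sc5d, the desaturase that follows it, had 35.1 CPM in Tc9 and 36.8 CPM in Tc1 other CD4 cells, a ratio of -0.07 (-0.31 to 0.17), and 19.6 and 41.7 CPM in cycling cells. Nsdhl, a sterol dehydrogenase, had ratios from -0.78 to -0.50. Dhcr7, which makes cholesterol from its last precursor, reached 10 CPM in Foxp3 and cycling cells, with ratios of -1.34 and -1.70. Mvd, Mvk, Lss and Tm7sf2 stayed under the mean of 10 CPM in all 4 gates, as did Acat2 and Hsd17b7 outside the cycling gate. With Fdps and Ebp left out, the other 16 genes still summed to 135 CPM in Tc9 and 329 CPM in Tc1 Foxp3 cells, and to 136 and 201 CPM in other CD4 cells.

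The sterol sensor itself differed less than the enzymes. Srebf2, the gene of SREBP2, had 71.5 CPM in Tc9 and 79.4 CPM in Tc1 Foxp3 cells, and its log2 ratios in the 4 gates lay between -0.20 and 0.14. Scap ratios lay between -0.24 and 0.29, and neither gene passed 1.5-fold in any T cell gate. Srebf1, whose product favours fatty acid genes, passed it in CD8 cells alone, with 32.7 CPM in Tc9 and 18.9 CPM in Tc1. The INSIG genes encode the anchors, and Insig1 is itself a textbook SREBP target. Insig1 had 15.4 CPM in Tc9 and 27.7 CPM in Tc1 Foxp3 cells (-0.85) and 8.18 and 19.0 CPM in CD8 cells (-1.21), but a ratio of -0.20 in other CD4 cells. Insig2 had 15.1 CPM in Tc9 and 29.7 CPM in Tc1 other CD4 cells, a ratio of -0.97 (-1.26 to -0.68).

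Abcg1, which passes cholesterol to high-density lipoprotein, was higher in Tc9 in each of the 4 gates. Abcg1 had 104 CPM in Tc9 and 15.7 CPM in Tc1 Foxp3 cells, a log2 ratio of 2.74 (2.05 to 3.52). In other CD4 cells it had 76.4 CPM in Tc9 and 35.4 CPM in Tc1, a ratio of 1.11 (0.88 to 1.35). CD8 cells had 53.2 CPM in Tc9 and 30.2 CPM in Tc1, a ratio of 0.82 (0.46 to 1.16). Cycling cells had 73.7 CPM in Tc9 and 10.7 CPM in Tc1, a ratio of 2.78 (2.45 to 3.13). The intervals of the libraries did not overlap in any of these gates. Thinned to 2000 UMIs, 17.7% of Tc9 and 2.29% of Tc1 Foxp3 cells had an Abcg1 UMI, and 13.8% and 5.32% of other CD4 cells. Of 179 thinned Tc1 melanoma cells 1.12% had one (exact 95% interval 0.136 to 3.98%), a wide interval that holds the Tc1 Foxp3 share. In CPM these gates lay apart, with 15.7 CPM in Tc1 Foxp3 and 0.499 CPM in Tc1 melanoma cells. Unthinned, the shares were 43.7% and 7.22% of Foxp3 cells in Tc9 and Tc1, and 2.68% of melanoma cells. The median depths were 5567 and 4516 UMIs in Tc9 and Tc1 Foxp3 cells and 46036 UMIs in melanoma cells.

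Abca1, which loads lipid-poor apolipoprotein A-I, varied by gate. It had 35.7 CPM in Tc9 and 29.5 CPM in Tc1 Foxp3 cells, and 19.6 and 15.3 CPM in cycling cells, with intervals of the ratio that span 0. The free Abca1 RNA expected in Foxp3 cells by the added estimate was 3.57 CPM in Tc9 and 14.3 CPM in Tc1. CD8 cells had 50.8 CPM in Tc9 and 23.1 CPM in Tc1, a log2 ratio of 1.14 (0.77 to 1.5). Other CD4 cells had 13.9 CPM in Tc9 and 38.3 CPM in Tc1, a ratio of -1.46 (-1.73 to -1.18). The unthinned shares of other CD4 cells with an Abca1 UMI were close, but at unequal median depths of 5424.5 UMIs in Tc9 and 3541 UMIs in Tc1. They thus cannot be compared directly. In this gate the cells with an Abca1 UMI held more of them on average in Tc1. There, 78 of 1101 Tc1 cells (7.08%) held 182 Abca1 UMIs, while 243 of 3586 Tc9 cells (6.78%) held 296. With each cell given equal weight the ratio was -0.40. Summed, the exporters had 140 CPM in Tc9 and 45.2 CPM in Tc1 Foxp3 cells, 90.3 and 73.7 CPM in other CD4 cells, 104 and 53.3 CPM in CD8 cells and 93.3 and 26.0 CPM in cycling cells, with Tc9 first in each pair. The log2 ratios of these sums were 1.63 in Foxp3, 0.29 in other CD4 and 1.84 in cycling cells, and 2.23, 0.47 and 2.37 with free RNA subtracted by the added estimate. The planned subtraction, described at the end, reversed the exporter ratio in cycling cells.

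**Figure D2:**
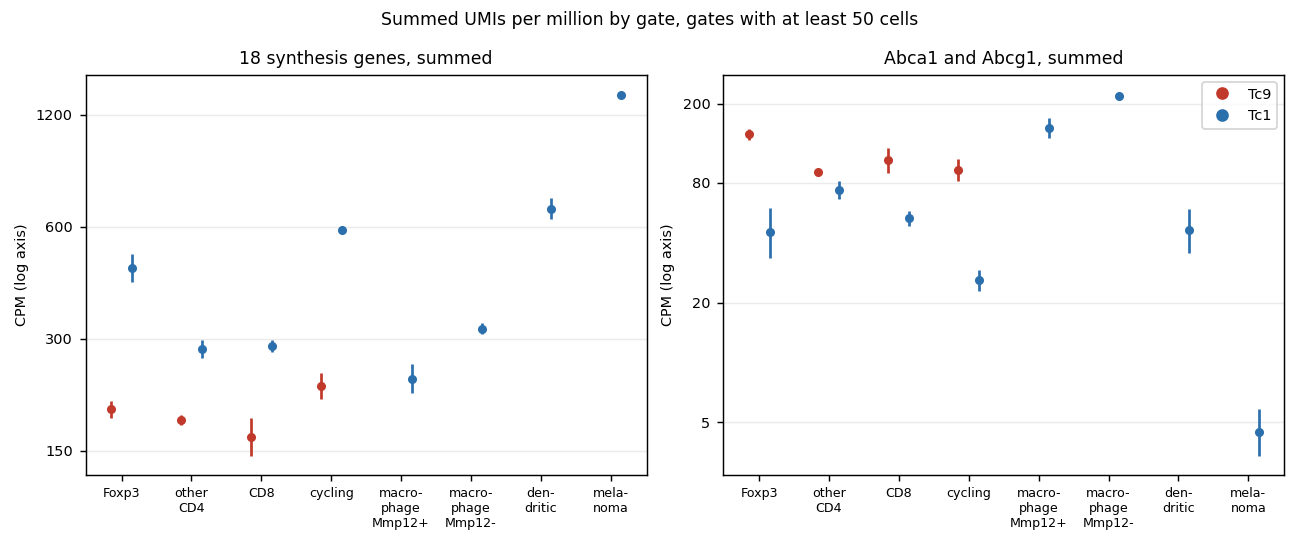
Summed CPM (log axis) of the 18 synthesis genes (left) and of Abca1 and Abcg1 (right) in each gate with at least 50 cells, red for Tc9 and blue for Tc1, with 95% Poisson bars. In every T cell gate Tc9 is lower on the left and higher on the right, and Tc1 melanoma cells are highest on the left (1354 CPM) and lowest on the right (4.49 CPM).

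Set against each other, the UMIs of synthesis genes per exporter UMI were 1.38 in Tc9 Foxp3 cells (1.27 to 1.51) and 10.3 in Tc1 Foxp3 cells (7.68 to 14.1). Other CD4 cells had 2.01 in Tc9 and 3.82 in Tc1, CD8 cells 1.57 in Tc9 and 5.37 in Tc1, and cycling cells 2.40 in Tc9 and 22.7 in Tc1. The order of the gates thus differed between libraries. In Tc1 the cycling cells stood far above the rest, while the 4 Tc9 gates lay between 1.38 and 2.40. Among thinned Foxp3 cells, 30.1% in Tc9 and 52.0% in Tc1 had a synthesis UMI, and 22.8% in Tc9 and 5.14% in Tc1 had an exporter UMI. In cycling cells a synthesis UMI was found in 30.2% of Tc9 and 61.2% of Tc1 cells.

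The cycling gates held different T cells. In Tc9, 37.0% of cycling cells had a Cd8a or Cd8b1 UMI and 69.1% a Cd4 UMI, against 83.5% and 27.6% in Tc1. A Foxp3 UMI was found in 35.8% of Tc9 and 13.6% of Tc1 cycling cells. The CD8 gates also differed in their receptors. Once cells were left out whose TRB chain was shared between the receptor libraries, 70 of the 190 Tc9 cells and 1553 of the 1577 Tc1 cells remained. Whether these chains mark transferred cells was not tested. In the remaining cells the synthesis ratio in CD8 cells was -0.88 and the exporter ratio 1.21.

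LXR targets and receptors were split. Mylip had 36.6 CPM in Tc9 and 17.5 CPM in Tc1 Foxp3 cells, a log2 ratio of 1.06 (0.39 to 1.82), and 57.8 and 29.1 CPM in other CD4 cells, a ratio of 0.99. In cycling cells it had 35.2 CPM in Tc9 and 7.78 CPM in Tc1, a ratio of 2.18. CD8 cells had 36.2 CPM in Tc9 and 32.4 CPM in Tc1, and this interval spans 0 (-0.26 to 0.56). Nr1h2, the gene of the widely expressed LXR beta, had ratios from -0.43 to -0.11. Nr1h3, the gene of LXR alpha, was barely detected in T cells. It had 0 UMIs in 988 Tc9 and 4 UMIs in 180 Tc1 Foxp3 cells, and 7 and 10 UMIs in Tc9 and Tc1 other CD4 cells.

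Among genes of storage and transport, Npc2 stood out. Its product takes cholesterol out of the lysosome with NPC1. Npc2 had 262 CPM in Tc9 and 623 CPM in Tc1 Foxp3 cells, 215 and 536 CPM in other CD4 cells, 153 and 452 CPM in CD8 cells and 192 and 342 CPM in cycling cells. Its log2 ratios were -1.25, -1.32, -1.56 and -0.83. Tc1 macrophages had 1259 CPM and more. By the added estimate, from markers of macrophages and melanoma, the free Npc2 RNA expected in Tc1 other CD4 cells was 109 CPM. With free RNA subtracted in this way the other CD4 ratio was -1.19. Npc1 passed 1.5-fold in no T cell gate, with ratios from -0.53 to -0.05. Soat1, which esterifies cholesterol for storage, had 63.3 CPM in Tc9 and 38.8 CPM in Tc1 cycling cells and 44.1 and 44.0 CPM in other CD4 cells. Stard4, a carrier of sterol between membranes, had ratios of -0.97 in Foxp3 and cycling cells and -0.20 in other CD4 cells. Over all 32 members, 24, 22, 22 and 27 reached the mean of 10 CPM in Foxp3, other CD4, CD8 and cycling cells. Of these 2, 2, 3 and 3 were higher in Tc9 by 1.5-fold, against 14.9%, 6.81%, 14.7% and 16.4% of all genes, and 14, 8, 8 and 14 were lower, against 19.2%, 16.9%, 19.5% and 20.5%. The 8 lower members in other CD4 cells were 3 with free RNA subtracted by the added estimate, a setting for which no share of all genes is given.

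**Figure D3:**
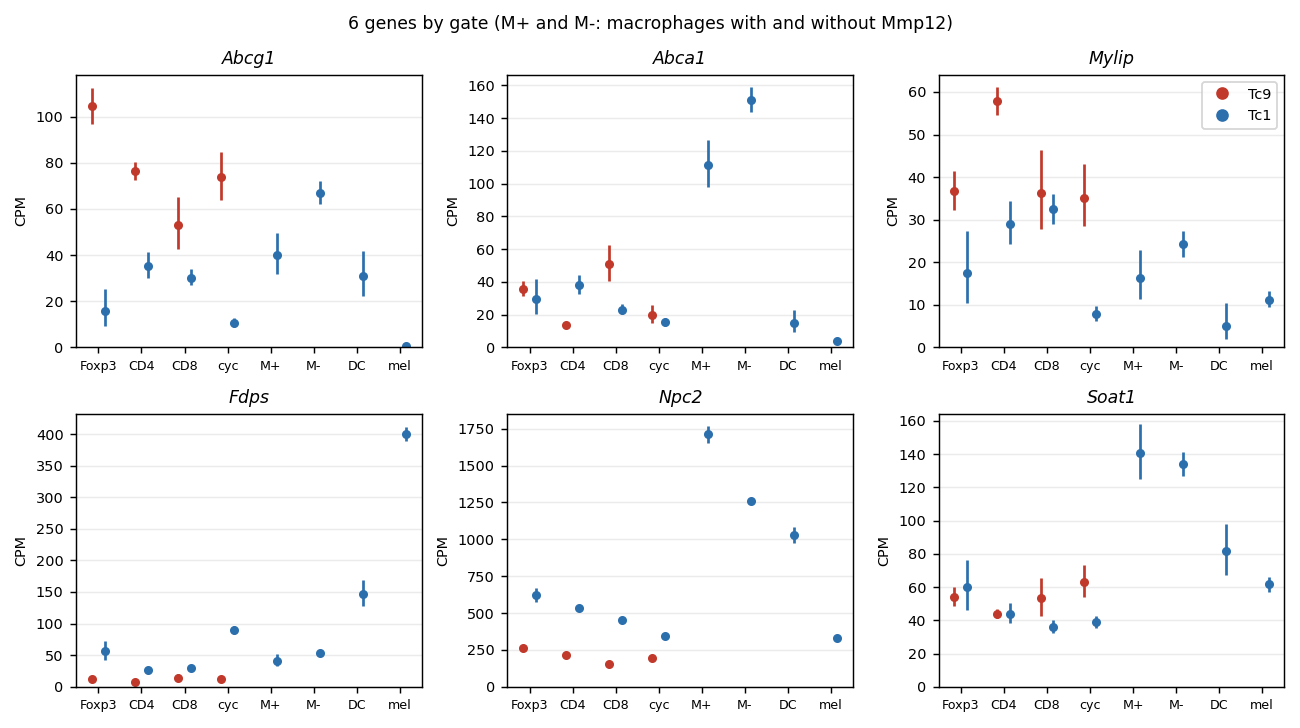
CPM (linear axes from 0) of Abcg1, Abca1, Mylip, Fdps, Npc2 and Soat1 in the gates with at least 50 cells, red for Tc9 and blue for Tc1, with 95% counting bars. Abcg1 is higher in Tc9 in all 4 T cell gates, Abca1 is highest in Tc1 macrophages without Mmp12 (151 CPM), and Fdps is highest in Tc1 melanoma cells (400 CPM).

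Genes of neighbouring pathways were counted in the same way. Of 17 further sterol genes 3 of 9 that reached 10 CPM in other CD4 cells were lower in Tc9 and 0 were higher, where 16.9% of all genes were lower and 6.81% higher. They include Lipa, the lysosomal lipase (11.9 CPM in Tc9 and 31.2 CPM in Tc1), Stard3 (11.3 and 22.5 CPM) and Nceh1 (18.03 and 29.5 CPM). Of 10 fatty acid genes 4 of 6 were higher and 0 lower in Foxp3 cells, with a median log2 ratio of 0.77, against 14.9% and 19.2% of all genes. In other CD4 cells 2 of 6 were higher and 1 lower, against 6.81% and 16.9% of all genes. In CD8 cells 2 of 6 were higher and 2 lower, against 14.7% and 19.5%. In cycling cells 1 of 5 was higher and 1 lower, against 16.4% and 20.5%. Scd2, a desaturase that SREBP proteins drive, had 27.1 CPM in Tc9 and 10.7 CPM in Tc1 other CD4 cells and 65.4 and 12.0 CPM in CD8 cells. Acaca, which makes malonyl-CoA, had 30.8 CPM in Tc9 and 18.3 CPM in Tc1 other CD4 cells. Elovl6, a fatty acid elongase, was higher in Tc9 Foxp3 cells (48.4 CPM, against 23.1 CPM in Tc1) and lower in Tc9 other CD4 cells (8.85 CPM, against 21.5 CPM in Tc1). Of 5 other LXR targets in other CD4 cells 1 was higher and 2 lower. Arl4c had 243 CPM in Tc9 and 111 CPM in Tc1, while Apoe had 9.18 and 227 CPM and Plin2 30.4 and 219 CPM. Apoe is also one of the macrophage check genes.

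The ratio between the libraries also moved with the length of genes. In Foxp3 cells the median log2 ratio of all genes was -0.40 in the shortest of 10 classes of genomic span and 0.43 in the longest, and in other CD4 cells -0.36 and 0.14. Abcg1 spans 60.3 kb and Abca1 129 kb, whereas Fdps spans 8.38 kb and Idi1 6.79 kb. Relative to genes of like span, added after seeing the data, the synthesis ratio was -1.08 in Foxp3, -0.40 in other CD4, -0.64 in CD8 and -1.14 in cycling cells, and the exporter ratio in cycling cells was 1.47.

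**Figure D4:**
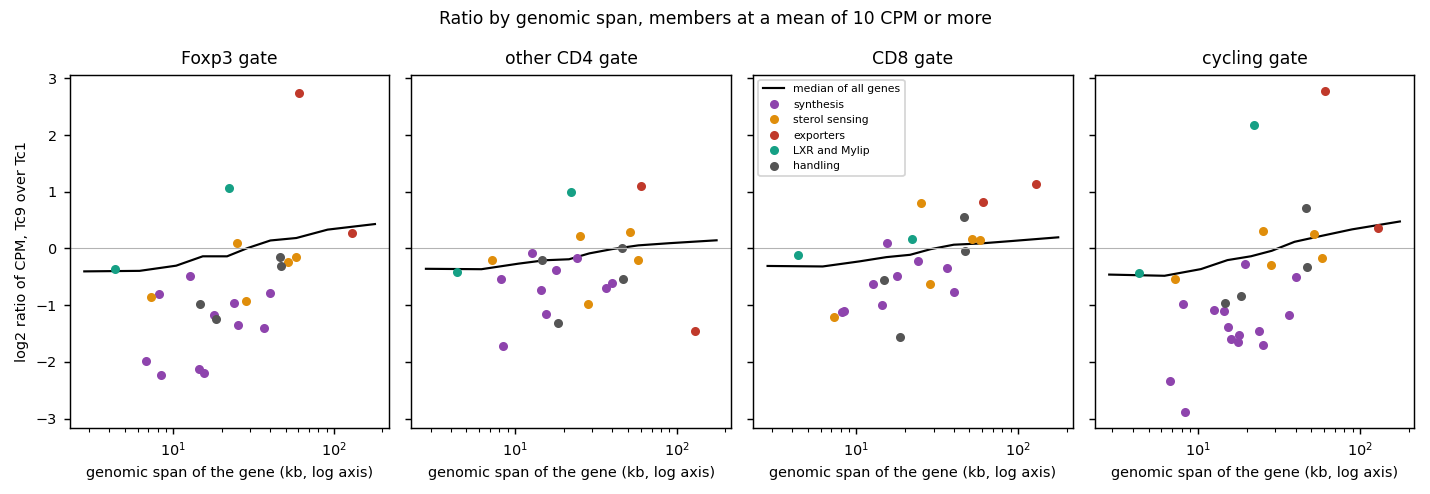
Log2 ratio of CPM, Tc9 over Tc1, against genomic span (kb, log axis) in 4 T cell gates, with the median of all genes per class of span as a black line and members at a mean of 10 CPM or more as points coloured by role. Most synthesis genes lie below the line and Abcg1 lies above it in each gate.

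The genes closest to Abcg1 in pattern were named by Pearson correlation of log2(CPM + 1) over 12 gates and libraries that share depth and free RNA within a library, among 5756 genes. They were Gm42418 (r = 0.95), which overlaps ribosomal RNA sequence, the ubiquitin ligase gene Rnf19b (0.94), the elongation factor gene Ell2 (0.94), Arl4c (0.94) and Aff1 (0.93). Among members, Abca1 had r = 0.62 and Mylip 0.60, and all 18 synthesis genes had negative values, down to -0.92 for Nsdhl. Gm42418 had 48330 CPM in Tc9 and 32966 CPM in Tc1 Foxp3 cells.

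Within the libraries, T cell gates were compared by edgeR's quasi-likelihood test on summed counts of each gate in both libraries, with library as a block. The replicates of a gate were these 2 libraries, which are also the 2 groups. A p-value thus rests on 2 sums per gate, and its spread includes differences between Tc9 and Tc1. The cycling gate mixes CD4 and CD8 cells, unlike the other CD4 gate, so cycling and lineage cannot be told apart in that comparison. Idi1 was the only one of 23 tested members that passed an adjusted p of 0.05 in this fit. It was higher in cycling than in other CD4 cells, with 9.63 and 48.6 CPM in Tc9 and Tc1 cycling cells and 2.68 and 10.7 CPM in Tc9 and Tc1 other CD4 cells. Its log2 ratio was 2.0 (SE 0.23, adjusted p = 0.00277), in a comparison where 9.86% of all genes were higher and 6.02% lower. It was higher in both libraries. The call was lost without the library block and under the planned free RNA subtraction, and DESeq2 called 3 members higher and 1 lower in cycling cells. At an unadjusted p under 0.05, 10 of 23 members differed in cycling cells, against 2832 of 8002 genes, among them Fdps (1.32, adjusted p = 0.058), Pmvk (1.18, adjusted p = 0.0545) and Mylip (-1.31, adjusted p = 0.0625). For Foxp3 over other CD4 cells 0 members passed, with 3 at an unadjusted p under 0.05, against 1121 of 8002 genes, and DESeq2 called 1. The edgeR background was 0.812% higher and 0.512% lower. For CD8 over other CD4 cells 0 passed, with 2 at an unadjusted p under 0.05, against 1013 of 8002 genes. The edgeR background was 0.287% higher and 0.15% lower. DESeq2 called 0, and no share of all genes is given for the DESeq2 calls. By size alone, without a test, the libraries gave different counts. Among Foxp3 over other CD4 ratios in Tc9, 2 of 18 members were 1.5-fold higher (11.1% of all genes) and 2 lower (3.61%), while in Tc1 10 of 25 were higher (11.9%) and 2 lower (9.03%). For CD8 over other CD4 cells the Tc9 library had 3 of 20 higher (11.1%) and 3 lower (12.2%), and Tc1 had 0 of 23 higher (4.13%) and 3 lower (10.9%). For cycling over other CD4 cells Tc9 had 3 of 20 higher (19%) and 2 lower (6.76%), and Tc1 had 12 of 26 higher (21.7%) and 4 lower (18.3%). In Tc1, 11 of 13 synthesis genes were 1.5-fold higher in cycling than in other CD4 cells, and in Tc9, 3 of 7.

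Tc1 macrophages combined high export with moderate synthesis. Macrophages without Mmp12 had 151 CPM of Abca1, against 38.3 CPM in Tc1 other CD4 cells, a log2 ratio of 1.98 (1.76 to 2.21), in a comparison where 22.6% of all genes were higher and 33% lower by 1.5-fold. Nr1h3 had 23.1 CPM in these macrophages and 2.11 CPM in other CD4 cells, a ratio of 3.45. Soat1 (134 and 44.0 CPM), Npc1 (60.8 and 26.3 CPM) and Npc2 (1259 and 536 CPM) were also higher in the macrophages. Their synthesis genes summed to 319 CPM, against 282 CPM in other CD4 cells, and 3 of 12 were higher and 1 lower. The lower gene was Sc5d, with 9.21 CPM in macrophages and 36.8 CPM in other CD4 cells. Per exporter UMI they had 1.46 synthesis UMIs, and macrophages with Mmp12 had 1.55. Of 22 members, 5 were higher and 9 lower in macrophages with Mmp12 than in other CD4 cells, where 18.5% of all genes were higher and 51.1% lower.

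Macrophages with Mmp12, an elastase of tissue macrophages, were set against those without, where the median log2 ratio of all genes was -0.46. Abca1 stood at 112 CPM with and 151 CPM without Mmp12, a ratio of -0.44, and Abcg1 at 39.9 and 66.8 CPM, a ratio of -0.74. Of 22 members at 10 CPM 0 were 1.5-fold higher and 6 lower, where 4.5% of all genes were higher and 42.2% lower. Npc2 had 1712 CPM with Mmp12 and 1259 CPM without, a ratio of 0.44 (0.39 to 0.50).

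Tc1 dendritic and melanoma cells had the highest summed synthesis levels among the Tc1 gates. Dendritic cells had 671 CPM of synthesis genes and 46.2 CPM of exporters, and 9 of 13 synthesis genes were 1.5-fold higher than in other CD4 cells, where 22.1% of all genes were higher and 28.5% lower. Pmvk had 108 CPM in dendritic cells and 13.9 CPM in other CD4 cells. Melanoma cells had 1354 CPM of synthesis genes, and 16 of 17 were higher than in other CD4 cells, against 38.7% of all genes. Fdps reached 400 CPM in melanoma cells, against 25.9 CPM in other CD4 cells. Abca1 stood at 3.99 CPM and Abcg1 at 0.499 CPM in melanoma cells, ratios of -3.26 and -6.15, where 30.3% of all genes were lower. Melanoma cells thus had 301 synthesis UMIs per exporter UMI (231 to 401). Dendritic cells had 14.5 (11.3 to 19.0), below the 22.7 of Tc1 cycling T cells (20.1 to 25.7).

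The few Tc9 myeloid cells are given as values. The 29 macrophages without Mmp12 held 46 Abca1 and 10 Abcg1 UMIs, a summed exporter level of 1005 CPM (759 to 1305), against 218 CPM (209 to 227) in the 1564 Tc1 cells. Their synthesis genes had 13 UMIs, 233 CPM (124 to 399), against 319 CPM (308 to 330) in Tc1. The median depth was 1725 UMIs in the Tc9 cells and 5199 UMIs in the Tc1 cells. The 30 Tc9 dendritic cells had 264 CPM of synthesis genes and 62.3 CPM of exporters, against 671 and 46.2 CPM in the 119 Tc1 cells.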

How the data were processed

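Single-cell RNA was measured with the 10x 5′ v2 chemistry in 1 library per group. The deposited filtered matrices hold counts of UMIs per gene and barcode, for which the submitters' processing notes name Cell Ranger 7.0.0, mm10 and GRCm38. The T cell receptor contigs, as deposited, were used only to find TRB chains in both libraries. The 32 members and all gene lists were chosen with earlier results of these data known. No doublet caller was run. Gates excluded barcodes with mixed markers, and removal of the top 5% of UMI totals was an alternative.

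UMIs were summed per gate and library and scaled to CPM. Ratios are log2 of CPM, Tc9 over Tc1, with exact conditional 95% intervals that treat UMIs of a cell as independent and cover counting error only. With 1 library per group there is no test between groups. Shares have exact Clopper-Pearson intervals, and thinning took 2000 UMIs per cell. Gates were compared with edgeR 4.0.16 (R 4.3.3), adjusted by Benjamini-Hochberg over 8002 genes, with DESeq2 1.42.0 as an alternative. Both computations were run on simulated counts drawn from a shared profile with known changes. That checks the computation and does not cover the differences between the real libraries. Named genes were all members, up to 3 per neighbouring list with the largest ratio in other CD4 cells, and the 5 genes most like Abcg1. An alternative planned for other CD4 cells is not reported here.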

Additional observations from a re-analysis of the deposited data

Results flagged for a closer look

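Abca1 had opposite ratios in different T cells of the same libraries. In CD8 cells it had 50.8 CPM in Tc9 and 23.1 CPM in Tc1, a log2 ratio of 1.14, and in other CD4 cells 13.9 CPM in Tc9 and 38.3 CPM in Tc1, a log2 ratio of -1.46. What drew attention is that the gates moved in opposite directions, and the difference between them was not tested, since each group has 1 library. With each cell given equal weight the other CD4 ratio was -0.40.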

How the results depend on the processing

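Of the summary values under the alternatives 194 kept their direction and size, 53 moved and 1 reversed. The planned free RNA subtraction took the macrophage check genes, among them Fcer1g and Tyrobp, which T cells also express, against the whole library. In Tc1 Foxp3 cells Fcer1g (464 CPM) and Tyrobp (391 CPM) were only part of the 2327 CPM of these genes. The shares of UMIs put down as free RNA were 24.9% to 89.2% in the Tc9 gates and 14.6% to 33.3% in the Tc1 gates. Shares this high make the values of this subtraction hard to read. Under it the cycling exporter ratio was -0.39 and the synthesis ratios were -1.10 (Foxp3), -0.038 (other CD4), -0.47 (cycling) and 0.77 (macrophages without Mmp12 over other CD4). The exporter ratios were 3.56 (Foxp3), 0.53 (other CD4) and 1.91 (macrophages), members called were 4 higher and 3 lower in other CD4 and 8 lower in cycling cells, and the Idi1 call was lost (0). It also reversed Fdft1 (0.067), Pmvk (0.40) and Msmo1 (0.54) in other CD4, Fdps in CD8 (0.087), and Fdft1 (0.20) and Pmvk (0.62) in cycling cells. The added subtraction may run low, since some of its markers also kept barcodes out of the T cell gates. It put 2.47% to 6.62% in Tc9 and 5.81% to 12.3% in Tc1. It gave exporter ratios of 2.23 (Foxp3), 0.47 (other CD4) and 2.37 (cycling), a synthesis ratio of -0.38 in other CD4 cells and 3 members lower there.

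With equal cell weight the exporter ratios were 2.37 (Foxp3), 0.86 (other CD4), 1.22 (CD8) and 2.04 (macrophages), and the synthesis ratios -1.26 (cycling) and -0.027 (macrophages). Without the top 5% of UMI totals the cycling ratios were 2.27 (exporters) and -1.12 (synthesis), with 2 members called in the edgeR test. Scaling by the median ratio of genes gave synthesis ratios of -0.52 (other CD4) and 0.34 (macrophages), and stricter gates -1.42 (Foxp3). Relative to genes of like span the ratios were -1.08, -0.40 and -1.14 for synthesis in Foxp3, other CD4 and cycling cells and 1.47 for exporters in cycling cells.

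With no minimum 15 members were lower in other CD4 and 16 in CD8 cells. At a minimum of 50 CPM the counts were 1 higher and 2 lower (Foxp3), 1 and 1 (other CD4), 0 and 1 (CD8) and 1 and 3 (cycling). No share of all genes is given for these minimums or for the other alternatives. Their member counts thus cannot be set against a background. In the edgeR test, cycling cells had 3 members higher and 1 lower by DESeq2, 6 and 2 with no minimum, and 4 and 1 without shared TRB chains. Foxp3 cells had 1 higher under each of these, and CD8 cells 1 lower with no minimum. With no replicate block the Idi1 call was lost, which left 0 members in cycling cells. Equal cell weight gives no counts, so edgeR was not run on it, nor on macrophages with at most 1 Mmp12 UMI. The cause of these changes was not tested.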
